A study of Mus musculus with 16 samples.

Results

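Paneth cells sit between the stem cells at the base of the small intestinal crypts and supply them with signals. The genes described here are 7 named genes of that supply, taken by name from the 55414 genes of the deposited count table in all 4 injection groups: the Wnt ligand Wnt3, the EGF family ligands Egf and Tgfa, the Notch ligands Dll1, Dll4 and Jag1, and the ectoenzyme gene Bst1. RNA was sequenced from Paneth cells sorted from the small intestine of mice, which were C57BL/6J in the methods of the study. Mice were injected with DEX or with its vehicle PBS, again 1 h later with tumour necrosis factor (TNF) or PBS, and sampled 3 h after that. The 4 groups are named by both injections in turn, hold 4 libraries each, described as biological replicates, and are PBS+PBS (vehicle throughout), DEX+PBS (DEX without TNF), PBS+TNF (TNF without DEX) and DEX+TNF (both agents). The sources used here write only DEX, which commonly stands for dexamethasone, a glucocorticoid drug, and give no age or dose, and no sex by library. All groups share the injection schedule, and no transgene is named for any of them.

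Wnt ligands are secreted lipid-modified proteins that bind Frizzled and LRP receptors and keep beta-catenin active in crypt stem cells. The EGF family ligands Egf and Tgfa are made as membrane precursors, are cut free by proteases and drive division through the receptor Egfr. The Delta and Jagged proteins Dll1, Dll4 and Jag1 stay in the membrane and switch on Notch in the neighbouring cell that they touch, which holds that cell out of the secretory lineage. Bst1 makes cyclic ADP-ribose from NAD at the cell surface and is known as the Paneth cell enzyme that responds to nutrient state.

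The 3 genes that passed the test after TNF, below, were Wnt3, Egf and Dll4, and their promoters are shown for that reason. The RefSeq promoter table (build GRCm38.p6) held 6 of the 7 genes (not Bst1), and each window was placed on GRCm39, the build of the counts, by an exact match of its bases. A window runs from 250 bases before the start site to 50 bases after it and is printed 5′ to 3′ on the strand of the gene. Capitals mark a match to any of the motifs searched on both strands. These were the kappaB site bound by the NF-kB factors, the glucocorticoid response element, the short glucocorticoid motif AGAACA, the TCF/LEF site CTTTGAT or CTTTGAA, the RBPJ site TGGGAA, the AP-1 site TGANTCA and the core of the interferon-stimulated element. The full glucocorticoid element contains the short one, and no other pair of these motifs overlapped in the windows shown. Wnt3 lies at chr11:103664751-103665050 on the plus strand, Egf at chr3:129548922-129549221 on the minus strand and Dll4 at chr2:119156015-119156314 on the plus strand.
Wnt3: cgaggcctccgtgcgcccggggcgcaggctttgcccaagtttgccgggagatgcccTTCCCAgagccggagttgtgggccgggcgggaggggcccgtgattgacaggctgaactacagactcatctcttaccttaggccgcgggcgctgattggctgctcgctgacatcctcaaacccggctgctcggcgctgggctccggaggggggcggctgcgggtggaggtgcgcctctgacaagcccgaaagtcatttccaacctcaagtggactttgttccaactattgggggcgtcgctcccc
Egf: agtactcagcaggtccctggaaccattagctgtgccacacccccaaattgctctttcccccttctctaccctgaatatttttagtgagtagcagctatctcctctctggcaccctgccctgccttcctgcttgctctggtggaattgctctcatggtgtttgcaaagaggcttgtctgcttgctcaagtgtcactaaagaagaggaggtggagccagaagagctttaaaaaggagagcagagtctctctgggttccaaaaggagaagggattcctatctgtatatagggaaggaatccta
Dll4: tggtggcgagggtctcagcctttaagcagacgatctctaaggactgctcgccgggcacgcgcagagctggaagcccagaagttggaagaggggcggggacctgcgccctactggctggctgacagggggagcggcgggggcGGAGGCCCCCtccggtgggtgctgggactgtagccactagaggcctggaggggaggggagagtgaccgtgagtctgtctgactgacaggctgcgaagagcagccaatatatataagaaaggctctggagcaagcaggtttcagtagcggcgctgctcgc
The Wnt3 window held 1 match, TTCCCA, which is the RBPJ site read on the other strand and begins at position -194 from the start site. The Dll4 window held 1 kappaB match, which begins at position -109. The Egf window shown held none of the motifs, nor did a second Egf window of the table, at chr3:129518686-129518985. Of the 32851 windows in the table, 25.6% held an RBPJ match and 8.46% a kappaB match, so neither letter string is rare. Among the other genes, Tgfa held a kappaB match at position 23. One of the Dll1 windows held a kappaB match at -81 and the motif AGAACA at -44 and 30, and the other an AP-1 match at -109, while Jag1 held no match. AGAACA occurred in 19% of all windows and the AP-1 site in 7.81%.

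Library totals ran from 7286307 to 15832111 counts. Values are given as CPM, the counts of a gene relative to the size of its library. Library sizes were corrected by TMM (trimmed mean of M-values), whose factors ran from 0.418 in PBS+TNF library 1 and 0.503 in PBS+PBS library 4 to 1.50 in DEX+TNF library 4. The sort was checked on marker genes, and 10 Paneth cell genes summed to 414914 to 614745 plain CPM in every library. Goblet cell genes summed to 8439 to 21920 CPM and stem cell genes to 221 to 1976 CPM. Paneth cell genes thus led every library, and RNA of goblet cell genes was present in each. The TNF-induced gene Nfkbia, which encodes an inhibitor of NF-kB, stood at 15.6 to 24.1 CPM in PBS+PBS and 276 to 337 CPM in PBS+TNF. In DEX+TNF it stood at 329.7 and 381 CPM in libraries 1 and 2 but at 28.3 and 41.0 CPM in libraries 3 and 4. The TNF-induced chemokine gene Cxcl10 was at 26.1, 33.0, 0 and 0.149 CPM in DEX+TNF libraries 1 to 4 and at 32.5 to 59.0 CPM in PBS+TNF. The glucocorticoid-induced gene Sgk1 was at 17.6 to 114 CPM in all 8 DEX libraries and at 1.11 to 7.94 CPM in the 8 others. DEX+TNF libraries 3 and 4 thus went against their label for TNF and not for DEX, and the edgeR fits, family shares and correlations that use this group are given with and without them, while DESeq2 was run on all 16 libraries. DEX+TNF library 4 further stood apart in tuft cell genes, at 645 summed CPM against 0.165 to 131 CPM in the other libraries, and in enterocyte genes, at 748 against 36.1 to 199 CPM.

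Wnt3 was the most abundant of the 7 genes for its length. Its level in PBS+PBS was 37.8 ± 4.61 CPM per kb of exon (SD, n = 4), followed by Dll4 at 6.16 ± 2.03, Dll1 at 3.86 ± 1.44, Egf at 2.26 ± 0.783, Tgfa at 1.95 ± 0.589 and Jag1 at 0.653 ± 0.243 CPM per kb. The range of Wnt3, 32.3 to 43.1 CPM per kb, lay above that of every other member, and that of Jag1, 0.295 to 0.824, lay below those of the 5 more abundant genes. Dll4 overlapped Dll1, Dll1 overlapped Egf, and Egf overlapped Tgfa, so these neighbours were not separated by their spread. Egf has 15 annotated transcripts, and over the length of its longest one alone it came to 4.84 CPM per kb, in the third place, ahead of Dll1 at 4.70. Within the 19 Wnt ligand genes, Wnt3 made up 97.4% of the summed level per kb in PBS+PBS and 96.8% to 97.7% in the other groups, with 96.8% over DEX+TNF libraries 1 and 2 alone.

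Bst1 was close to absent from the libraries. It had 59 counts in all, of which 17 fell in PBS+PBS library 4 (2.13 CPM), 4 in PBS+TNF library 3 (0.281 CPM) and 38 in DEX+TNF library 4 (1.89 CPM), and it had 0 counts in 13 libraries. A count of 0 allows up to 3 counts, or 0.199 to 0.412 plain CPM in the libraries concerned, for counting error only. The gene did not pass the low-count filter and was not tested, so each statement below on tested members covers the 6 other genes. Exons of Bst1 overlap those of Fbxl5 on the opposite strand, and whether the counting used strand is not given in the sources used here, so even these counts are uncertain. RNA of Bst1 was thus not detectable at this depth in 13 of the 16 libraries.

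**Figure D1:**
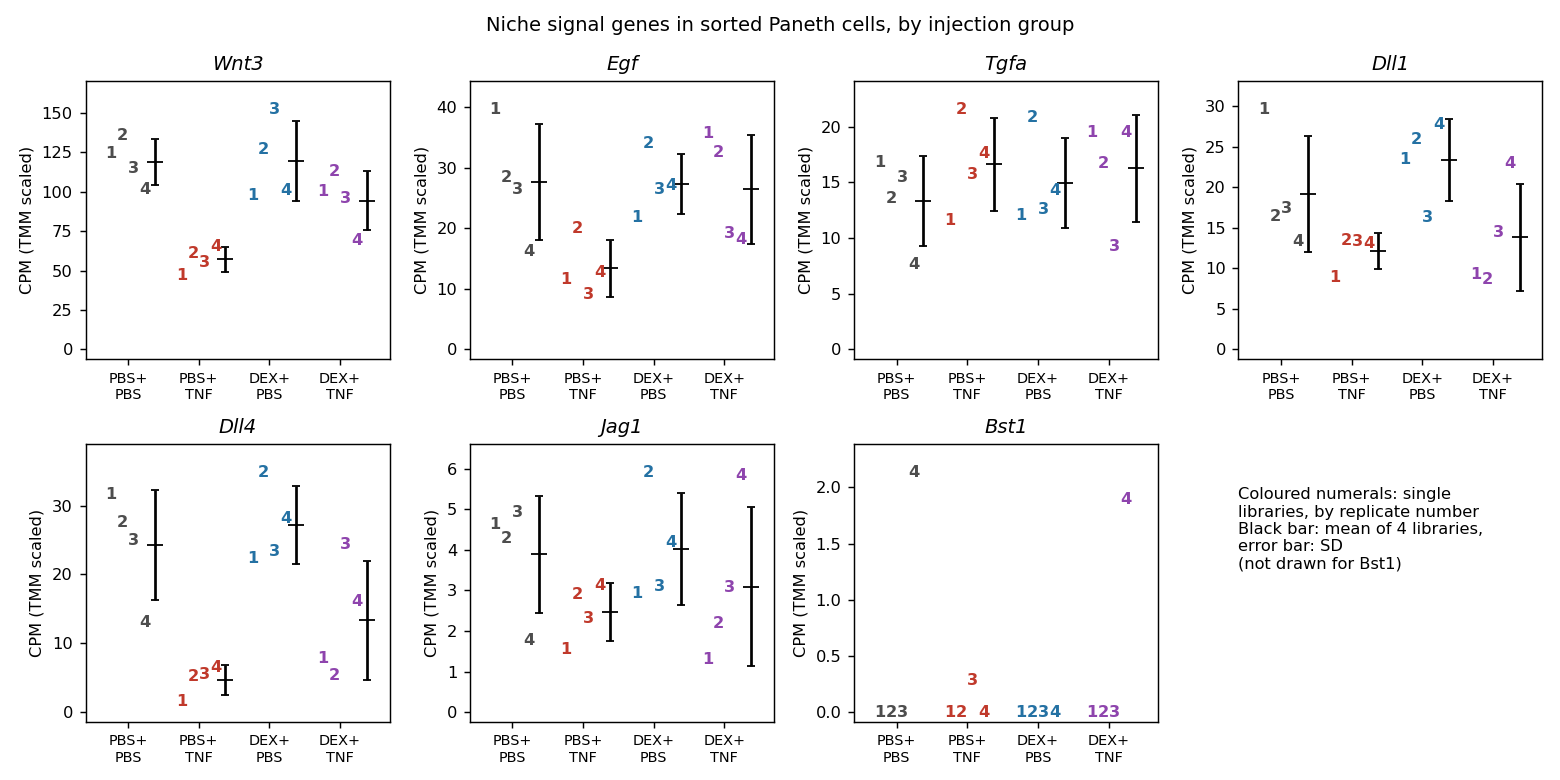
CPM of the 7 genes in each of the 16 libraries (vertical axes start near 0 and differ between panels), with libraries shown by their replicate number in the colour of their group and the mean ± SD in black. Wnt3 and Dll4 in the 4 PBS+TNF libraries lie below all 4 PBS+PBS libraries, while Tgfa shows no such step.

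TNF after PBS went with lower RNA of Wnt3, Egf and Dll4, that is of 1 ligand from each of the Wnt, EGF and Notch families. Of the 6 members tested, these 3 passed the test, all lower, against a background of 12.5% of the 11809 genes tested (5.35% lower and 7.15% higher). The members were chosen with earlier results of these data known, so this count is no measure of a preferential response. For Wnt3 and Dll4 the groups did not overlap, which held for 19.5% of all tested genes, and 26.4% of them had an unadjusted p under 0.05. The model was a quasi-likelihood fit in edgeR over all 16 libraries, and a gene was called at a Benjamini-Hochberg adjusted p under 0.05. In bulk libraries such as these, fewer cells of a type and less RNA per cell cannot be told apart.

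Wnt3 was at 124, 136, 114 and 102 CPM in PBS+PBS libraries 1 to 4 and at 47.0, 60.8, 55.4 and 65.2 CPM in PBS+TNF libraries 1 to 4. All PBS+TNF libraries were below all PBS+PBS libraries. The level was 2.08-fold lower after TNF (log2 fold change -1.06, SE 0.21, edgeR adjusted p = 0.00466). Wnt3 was called in all 25 alternative fits, between -1.17 and -0.99 on the log2 scale.

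Egf was at 39.5, 28.5, 26.3 and 16.2 CPM in PBS+PBS libraries 1 to 4 and at 11.5, 20.0, 9.13 and 12.8 CPM in PBS+TNF. PBS+PBS library 4 lay below PBS+TNF library 2, so the groups overlapped by these 2 libraries. The level was 2.06-fold lower after TNF (log2 fold change -1.04, SE 0.30, edgeR adjusted p = 0.0327). This call was the least secure of the 3, since Egf was called in 18 of 25 alternative fits and lost when PBS+PBS library 1, 2 or 3 or PBS+TNF library 1, 3 or 4 was left out, with log2 fold changes of -1.07 to -0.82 and adjusted p of 0.0565 to 0.118. A fit to the 2 groups alone gave an adjusted p of 0.0523.

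Tgfa, the second EGF family member, did not pass the test. It was at 16.8, 13.5, 15.5 and 7.66 CPM in PBS+PBS and at 11.5, 21.5, 15.7 and 17.6 CPM in PBS+TNF, and the groups overlapped. The fitted value was 0.32 on the log2 scale (SE 0.29, edgeR adjusted p = 0.540). Its sign was thus opposite to that of Egf, though the difference between the 2 genes was not tested. Egf made up 46.7% of the summed EGF family level per kb in PBS+PBS and 20.5% in PBS+TNF, with ranges of 39.8% to 54.3% and 14.8% to 27.6%. The share of Tgfa was 40.5% and 45.3%. These shares use the union of exons and depend on that length. Over the longest transcript alone, Egf stood at 4.84 and Tgfa at 2.83 CPM per kb in PBS+PBS. The summed level also holds Btc, another ligand of the family, which was at 1.82 CPM on average in PBS+PBS and 5.56 CPM in PBS+TNF, so the share of Egf moves with both genes.

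Dll4 was at 31.7, 27.5, 25.0 and 13.1 CPM in PBS+PBS libraries 1 to 4 and at 1.54, 5.18, 5.41 and 6.48 CPM in PBS+TNF. Every PBS+TNF library was below every PBS+PBS library. The level was 5.04-fold lower after TNF (-2.33 on the log2 scale, SE 0.44, adjusted p = 0.00322 in edgeR), and this was the largest change among the 6 members tested. Dll4 was called in all 25 alternative fits, between -2.56 and -2.11. Dll4 is also a gene of endothelial cells, and 4 of the 7 endothelial marker genes (Cdh5, Kdr, Tie1 and Emcn) had 0 counts in every library, while the 7 summed to 2.15 to 6.04 CPM in PBS+PBS and 0.322 to 4.29 CPM in PBS+TNF. Exons of Dll4 overlap those of the antisense gene Gm14207, which had 795 counts over all libraries against 3917 for Dll4.

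The other 2 Notch ligands had lower means after TNF but did not pass the test. Dll1 was at 29.5, 16.3, 17.4 and 13.3 CPM in PBS+PBS and at 8.85, 13.4, 13.3 and 13.1 CPM in PBS+TNF (log2 fold change -0.64, SE 0.31, edgeR adjusted p = 0.198). The groups overlapped only in that PBS+PBS library 4 lay below PBS+TNF library 2. Jag1 was at 4.62, 4.27, 4.91 and 1.76 CPM in PBS+PBS and at 1.54, 2.89, 2.32 and 3.12 CPM in PBS+TNF (log2 fold change -0.64, SE 0.43, edgeR adjusted p = 0.385). PBS+PBS library 4, with the TMM factor of 0.503, was the lowest of its group for each of the 6 tested members, and its part in these results is shown by the fit without it, which called the same 3 genes. The make-up of the Notch ligands shifted with Dll4. Per kb, Dll4 fell from 46.3% of the family in PBS+PBS (42.2% to 48.1%) to 20.6% in PBS+TNF (10.5% to 26.3%), while the share of Dll1 was 29.6% (22.7% to 34.9%) and 45.5% (42.4% to 47.9%), with no overlap for either gene. In DEX+TNF libraries 1 to 4 Dll4 held 34.9%, 27.8%, 56.6% and 33.6% of the family and Dll1 33.3%, 36.4%, 26.6% and 38.3%. Over libraries 1 and 2 alone the mean was 31.4% for Dll4 and 34.8% for Dll1, whereas Dll4 had the higher mean over all 4 libraries. By single library, Dll4 led in libraries 1 and 3 and Dll1 in libraries 2 and 4, so neither order of means held throughout. Egf held 37.1% of the EGF family over all 4 DEX+TNF libraries and 39.9% over libraries 1 and 2. These shares are given as a description, with no test. Exons of Dll1 overlap those of Fam120b on the opposite strand, which had 3417 counts over all libraries against 3889 for Dll1, so without the strand setting of the counting the Dll1 values are uncertain too.

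**Figure D2:**
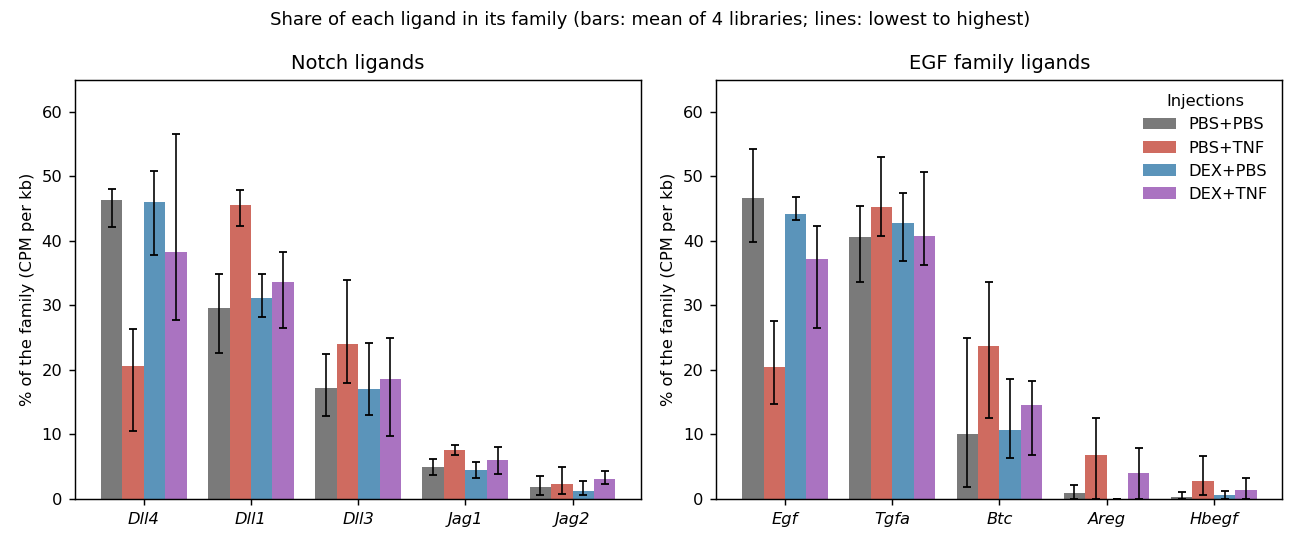
Share of 5 Notch ligands (left) and 5 EGF family ligands (right) in the summed level of their family, in percent of CPM per kb of exon, with bars for the mean of 4 libraries and lines from the lowest to the highest library. Dll4 and Egf hold 46.3% and 46.7% of their families in PBS+PBS and 20.6% and 20.5% in PBS+TNF, and Dll1 has the highest bar of the Notch ligands in PBS+TNF.

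DEX alone did not move any member past the test. The log2 fold changes of DEX+PBS over PBS+PBS ran from -0.02 for Egf to 0.29 for Dll1, with SEs of 0.21 for Wnt3 to 0.42 for Jag1. By edgeR 0 of the 6 members were called, 0 had an unadjusted p under 0.05 and DESeq2 called 0 (0.0594% of all genes), against a background of 0.00847% of genes called by edgeR, which was Sgk1 alone, and 1.91% at an unadjusted p under 0.05. Without DEX+TNF libraries 3 and 4 the members called were again 0, with 0.0164% of genes called. Wnt3 was at 97.6, 126, 152 and 101 CPM in the DEX+PBS libraries and Dll4 at 22.3, 34.8, 23.4 and 28.2 CPM. Both genes overlapped PBS+PBS, as did the other 4 members.

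TNF after DEX was compared with TNF after PBS. In the DEX+TNF libraries Wnt3 was at 100.2, 113, 95.6 and 68.9 CPM, and all 4 lay above the 4 PBS+TNF libraries. Egf was at 35.7, 32.6, 19.2 and 18.2 CPM, and Dll4 at 7.74, 5.25, 24.4 and 16.0 CPM. Wnt3 was 1.65-fold higher than in PBS+TNF (log2 0.72, SE 0.21, edgeR adjusted p = 0.157), Egf 1.97-fold (log2 0.98, SE 0.30, adjusted p = 0.187) and Dll4 2.76-fold (log2 1.46, SE 0.44, adjusted p = 0.167), and none of these passed the test. By edgeR 0 of 6 members were called and 3 had an unadjusted p under 0.05, against a background of 0.339% called, 11.9% at that unadjusted p and 6.38% with groups that did not overlap. DESeq2 called Wnt3 (log2 0.70, adjusted p = 0.0219) and Dll4 (log2 1.48, adjusted p = 0.0454), among 274 genes in all, or 2.32%.

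The DEX+TNF libraries did not behave alike, and the members divided by library in different ways. Libraries 1 and 2, with Nfkbia at the level of PBS+TNF, held Dll4 at 7.74 and 5.25 CPM, near the 1.54 to 6.48 CPM of PBS+TNF, yet held Wnt3 at 100.2 and 113 CPM and Egf at 35.7 and 32.6 CPM, within the ranges of PBS+PBS for Egf and close to that for Wnt3. Dll1 was at 9.27 and 8.64 CPM and Jag1 at 1.29 and 2.18 CPM in libraries 1 and 2. In libraries 3 and 4, with low Nfkbia, Dll1 was at 14.4 and 23.0 CPM and Jag1 at 3.06 and 5.83 CPM. The 3 Notch ligands were thus lower in libraries 1 and 2 than in 3 and 4, and Wnt3 and Egf higher. Tgfa, at 19.5, 16.7, 9.28 and 19.5 CPM, followed neither order. The differences between these pairs of libraries were not tested.

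**Figure D3:**
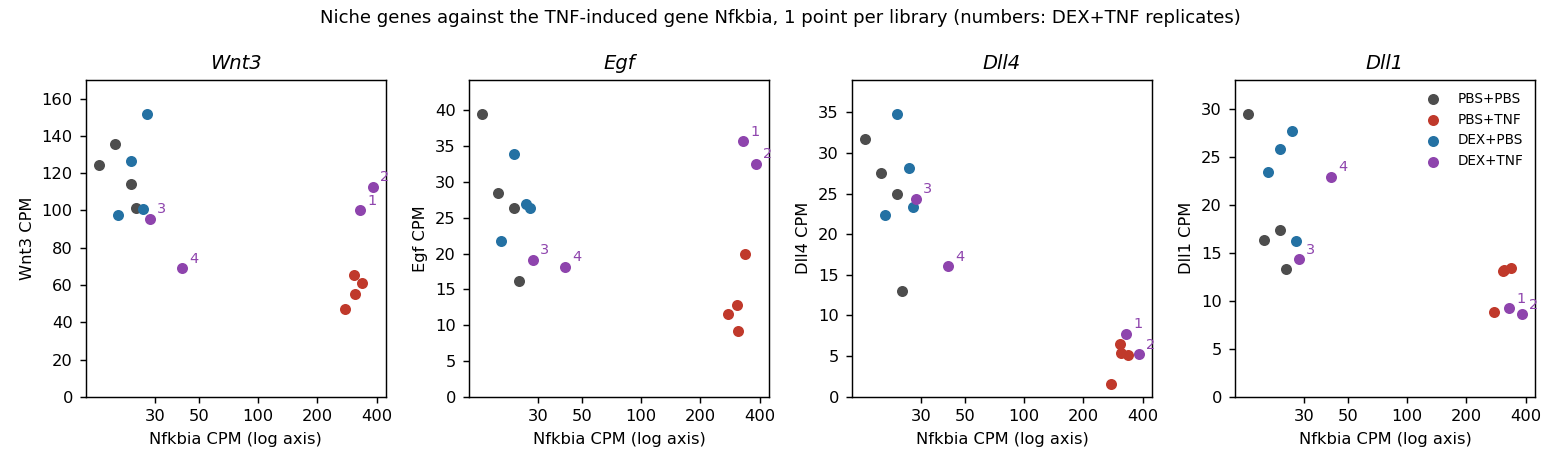
CPM of Wnt3, Egf, Dll4 and Dll1 (vertical axes from 0) against CPM of the TNF-induced gene Nfkbia (horizontal, log axis), with 1 point per library coloured by group and DEX+TNF libraries numbered. DEX+TNF libraries 1 and 2 lie beside PBS+TNF in Nfkbia and in Dll4 but above all PBS+TNF libraries in Wnt3 and Egf.

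Without libraries 3 and 4 the DEX+TNF group has 2 libraries, which differ from the others in TNF-induced genes, so these values are descriptions of that subset beside the full result. Against DEX+PBS, all 4 libraries gave 0 of 6 members called by edgeR and 0 by DESeq2 (2.2% of all genes), with 2 at an unadjusted p under 0.05. These were Dll4 (log2 -1.03, SE 0.42, adjusted p = 0.373) and Dll1 (log2 -0.75, SE 0.31, adjusted p = 0.378), against a background of 0.339% called and 10.4% at an unadjusted p under 0.05. Without libraries 3 and 4, Dll4 (log2 -2.06, SE 0.43, edgeR adjusted p = 0.00520) and Dll1 (log2 -1.38, SE 0.32, adjusted p = 0.0114) were called lower, against a background of 10.5% called and 3.32% called lower. In the same fit Wnt3 stood at -0.16 (adjusted p = 0.715), Egf at 0.32 (adjusted p = 0.578) and Jag1 at -1.22 (adjusted p = 0.113). Against PBS+TNF, the fit without them gave 0.90 for Wnt3 (adjusted p = 0.265), 1.35 for Egf (adjusted p = 0.243) and 0.42 for Dll4 (adjusted p = 0.674), where edgeR called 0% of all genes. The value of Dll4 against PBS+TNF thus went from 1.46 to 0.42 on the log2 scale without these libraries, and that of Egf from 0.98 to 1.35.

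Whether the TNF effect itself differed after DEX was tested with the interaction, which is the log2 fold change of DEX+TNF over DEX+PBS minus that of PBS+TNF over PBS+PBS. It was 0.72 for Wnt3 (SE 0.30, edgeR adjusted p = 0.881), 0.99 for Egf (SE 0.43, adjusted p = 0.884) and 1.30 for Dll4 (SE 0.60, adjusted p = 0.897). All 3 had an unadjusted p under 0.05. None of the 6 members was called by edgeR or DESeq2, and 0% of all genes were called by edgeR, 5.44% had an unadjusted p under 0.05, and DESeq2 called 9 genes (0.0763%). Without DEX+TNF libraries 3 and 4 the interaction was 0.90 for Wnt3 (adjusted p = 0.805), 1.36 for Egf (adjusted p = 0.805) and 0.26 for Dll4 (adjusted p = 0.978). A difference of the TNF effect with DEX was thus not shown for any member.

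**Figure D4:**
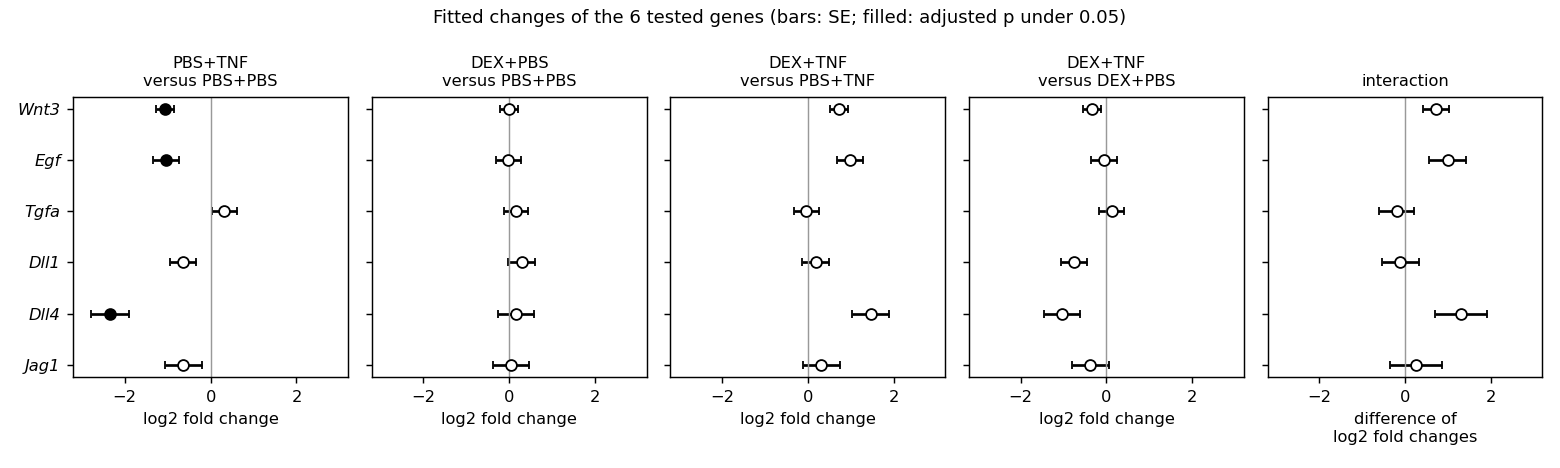
Fitted log2 fold changes of the 6 tested genes in the 4 comparisons and the interaction (horizontal axes, all to the same scale), with bars for the SE and filled points for edgeR adjusted p under 0.05. Filled points occur only for Wnt3, Egf and Dll4 in PBS+TNF versus PBS+PBS, at -1.06, -1.04 and -2.33.

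The genes that release, receive and answer these ligands were followed over 10 lists that hold 169 genes with the 7 members, of which 105 were tested. These lists were also chosen with earlier results of these data known, so their counts beside all genes are descriptions only. After TNF alone 25 of the 105 were called, against 12.5% of all genes. The fit without DEX+TNF libraries 3 and 4 tested more of the 169 genes than these 105. It called 37 of them, where 17.7% of all genes were called. In the other tests, taken in the order in which they are described above (DEX alone, DEX+TNF against PBS+TNF, DEX+TNF against DEX+PBS, interaction), edgeR called 0 of the 105, with 1, 17, 21 and 12 at an unadjusted p under 0.05, and DESeq2 called 0, 6, 6 and 0. The same order over all genes was 1.91%, 11.9%, 10.4% and 5.44% at an unadjusted p under 0.05 and 0.0594%, 2.32%, 2.2% and 0.0763% by DESeq2. Without libraries 3 and 4, and with that larger number of list genes tested, edgeR called 0, 0, 19 and 0. The 19 stand against the 10.5% of that fit.

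On the Wnt side the called genes were lower after TNF. Over all tested genes 5.35% were called lower and 7.15% higher, which is the background for each list below. Among the Wnt ligands 2 of 6 tested fell, none rose, and the median log2 fold change was -0.59, against -0.03 for all genes. Beside Wnt3 this was Wnt5a, a ligand known for beta-catenin-independent signalling (log2 -4.19, SE 0.98, edgeR adjusted p = 0.0104), which is scarce, with 47, 25, 20 and 4 counts in PBS+PBS and 0, 2, 3 and 0 in PBS+TNF. Of 5 tested genes for Wnt release and secreted inhibitors, 2 fell. These were Notum, an enzyme that inactivates Wnt proteins by removing their lipid (log2 -3.79, SE 0.94, adjusted p = 0.0143), with 10 to 41 counts a library in PBS+PBS and 6 counts in a single PBS+TNF library, and Dkk3, a secreted Dickkopf family protein (log2 -1.67, SE 0.38, adjusted p = 0.00899). Of 17 tested genes on the list of Wnt receptors 5 fell and none rose. They were led by Fzd9, a Frizzled receptor (log2 -2.17, SE 0.32, adjusted p = 0.000944), and Lgr4, an R-spondin receptor (log2 -1.58, SE 0.28, adjusted p = 0.00206). The other 3, named after their values were seen, were Lgr5, Rnf43 and Ryk. Rnf43 is on this list but is not itself a receptor, so the 5 are not all receptor genes. Lgr5, at 8.53 to 45.9 CPM in PBS+PBS and 5.58 to 12.2 CPM in PBS+TNF (log2 -1.58), is also on the stem cell marker list. The 5 genes of that list summed to 411 to 1048 CPM in PBS+PBS and 221 to 1252 CPM in PBS+TNF. Besides Lgr5, Rgmb (log2 -1.27, edgeR adjusted p = 0.00507) and Smoc2 (log2 -0.80, adjusted p = 0.0207) were called lower. Ascl2 (log2 -1.30, adjusted p = 0.265) and Olfm4, the most abundant of the 5 by median (log2 -0.33, adjusted p = 0.762), were not called. The part of stem cell RNA in these results was not tested. The call of Lgr5 was lost without PBS+PBS library 1 (highest adjusted p over the alternatives 0.0609), that of Ryk in the 2 groups alone and without PBS+PBS library 1 or PBS+TNF library 3 (0.0751), and that of Rnf43 without PBS+PBS library 1 or 3 or PBS+TNF library 1 or 3 (0.0655).

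On the EGF side the called ligand was lower after TNF and the called genes around its receptor were higher. Of 4 tested EGF family ligands only Egf was called. Btc, named after its values were seen, was just outside the threshold (log2 1.64, SE 0.53, adjusted p = 0.0522 in edgeR) and was called higher without DEX+TNF libraries 3 and 4 (log2 1.65, adjusted p = 0.0248). Of 15 tested genes for EGF receptors, shedding and feedback, 4 rose and none fell, against 7.15% of all genes called higher. The median log2 fold change of these 15 genes was 0.65. Rhbdl2, a rhomboid protease of the cell membrane, was at 0.514 to 0.753 CPM in PBS+PBS and 5.44 to 7.52 CPM in PBS+TNF (log2 3.30, SE 0.54, edgeR adjusted p = 0.00128). Rhbdf2, an inactive rhomboid that carries the sheddase Adam17 to the surface, rose by 1.49 on the log2 scale (SE 0.38, adjusted p = 0.0150). Its relative Rhbdf1 (log2 1.38, adjusted p = 0.0427) and the receptor gene Egfr (log2 1.34, adjusted p = 0.0445), named after their values were seen, were close to the threshold and were called in 15 and 13 of 25 alternative fits. Both calls were lost without any 1 of PBS+PBS libraries 1, 2 and 4, PBS+TNF libraries 2 and 4 and DEX+PBS libraries 2 and 4, and without the low-count filter, that of Rhbdf1 also with upper-quartile factors and with the replicate number as a block (log2 1.31, adjusted p = 0.0732), and that of Egfr also without any 1 of PBS+PBS library 3, PBS+TNF library 3 and DEX+PBS libraries 1 and 3. The highest adjusted p was 0.130 for Rhbdf1 and 0.137 for Egfr. In DEX+TNF libraries 1 and 2 Rhbdl2 was at 4.67 and 5.82 CPM, while Egf in those libraries was at 35.7 and 32.6 CPM.

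On the Notch side Dll4 was the only called ligand of 5 tested. Dll3, named after its values were seen, was called lower without DEX+TNF libraries 3 and 4 (log2 -0.85, SE 0.28, edgeR adjusted p = 0.0459). Of 20 tested genes for receptors, ligand processing and glycosylation 1 rose and 2 fell, which is near the 12.5% of all genes. Lfng, a glycosyltransferase that modifies Notch, was at 9.91 to 22.4 CPM in PBS+PBS and 1.51 to 3.85 CPM in PBS+TNF (log2 -2.59, SE 0.55, edgeR adjusted p = 0.00627). Maml3, a Mastermind coactivator of Notch, fell by 1.26 on the log2 scale (SE 0.30, adjusted p = 0.0106), and Neurl1a, a ubiquitin ligase of the Neuralized family, rose by 2.69 (SE 0.65, adjusted p = 0.0119). Neurl1a is scarce, with 5, 7, 19 and 1 counts in PBS+PBS and 23, 57, 50 and 59 in PBS+TNF. Of 9 tested Notch targets and Notch-repressed fate factors 2 fell, against 5.35% of all genes called lower. These were Hes6, a Hes family member (log2 -2.62, SE 0.53, adjusted p = 0.00489), and Gfi1, a repressor that acts in secretory cells (log2 -2.05, SE 0.36, adjusted p = 0.00199). The list mixes both kinds of gene, so these calls do not measure Notch activity. In DEX+TNF libraries 1 to 4 Hes6 was at 3.95, 3.96, 26.4 and 18.6 CPM and Lfng at 2.26, 0.727, 7.14 and 10.3 CPM, with the same low libraries as Dll4.

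Around Bst1, 1 of 13 tested genes of NAD and cyclic ADP-ribose metabolism was called, no more than the 12.5% of all genes, the NAD-making enzyme gene Nmnat3 (log2 -1.05, SE 0.24, edgeR adjusted p = 0.00954). Of 11 tested other niche factors 2 rose and 2 fell, against 7.15% of all genes called higher and 5.35% called lower. Csf1, a macrophage growth factor, was higher after TNF (log2 3.99, SE 0.92, adjusted p = 0.00915), with 1.73, 14.1, 11.0 and 19.0 CPM in PBS+TNF against 0 to 1.39 CPM in PBS+PBS, and Bmp2, a bone morphogenetic protein, rose by 1.17 (SE 0.32, adjusted p = 0.0239), a call that was lost without PBS+PBS library 1 or PBS+TNF library 2 (highest adjusted p 0.0748). The hedgehog ligand gene Ihh fell by 3.35 (SE 0.68, adjusted p = 0.00482), and the receptor gene Kit fell by 1.32 (SE 0.30, adjusted p = 0.00948).

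**Figure D5:**
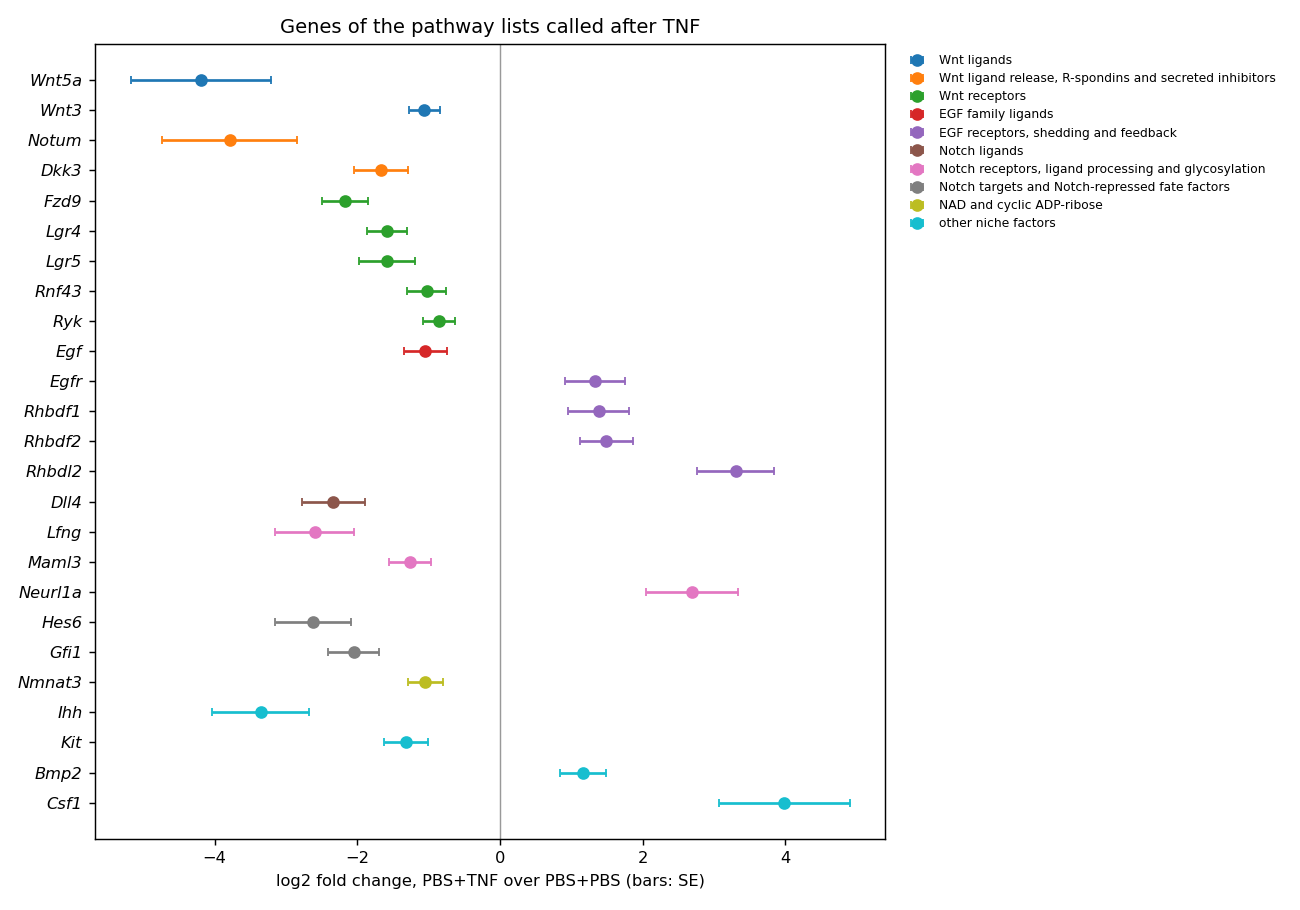
Log2 fold change of PBS+TNF over PBS+PBS (horizontal axis, bars for the SE) for the 25 called genes of the 10 lists, coloured by list. All called Wnt genes lie left of 0 and all called EGF receptor and shedding genes right of 0, from 1.34 for Egfr to 3.30 for Rhbdl2.

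Across the 16 libraries the members fell into different patterns, described by Pearson's r of log2 CPM with no test, since the libraries share their groups and scaling. Wnt3 and Egf had r = 0.82, Dll1 and Jag1 0.82, and Dll1 and Dll4 0.80. Wnt3 and Dll4 had r = 0.78, whereas Tgfa had -0.11 with Wnt3 and -0.08 with Dll4. Among tested genes that averaged 5 CPM or more, the 3 most like Wnt3 were Arsg (r = 0.91), Pgap4 (0.91) and Qsox1 (0.90), and those most like Egf were Rubcn (0.93), 2510009E07Rik (0.93) and Igdcc4 (0.91). Dll4 was closest to Slc19a1 (0.98), Jade1 (0.97) and Fchsd2 (0.97). Tgfa was closest to Cbl (0.94), Map3k11 (0.93) and Rere (0.92), Dll1 to Prelp (0.91), Gstm1 (0.89) and Shprh (0.89), and Jag1 to Axin2 (0.90) and Fam234b (0.90). Over the 14 libraries without DEX+TNF libraries 3 and 4, Wnt3 and Egf had r = 0.82, Dll1 and Jag1 0.81, Dll1 and Dll4 0.84, and Wnt3 and Dll4 0.83, and 12 of the 18 similar genes stayed among the 3 most alike. With Spearman's rho over all libraries 7 of the 18 genes found in this way stayed among the 3 most alike.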

How the data were processed

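Per the labels, total RNA of sorted Paneth cells was made into stranded mRNA libraries with a TruSeq kit. The deposited table holds raw counts of reads per Ensembl gene, 1 column a library; the submitters' processing notes name FastQC 0.12, STAR 2.7.10a and DESeq2, with assembly mm39 (GRCm39). The program that made the counts, its use of strand and its treatment of reads that match several genes are not given in the sources used here. Gene names, exon lengths and overlaps came from GENCODE M39, which held 54749 of 55414 identifiers.

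Genes were filtered with filterByExpr by group (11809 of 55414 kept), scaled with TMM and fitted with 1 mean per group by the robust quasi-likelihood method of edgeR 4.0.16 in R 4.3.3, and p-values were adjusted within each comparison over all tested genes. The SE is the log2 fold change over the square root of F. The scripts were tested on simulated counts. Levels per kb used the union of exons, and correlations log2 CPM with a prior count of 2. Alternatives changed the scaling (DESeq2 size factors, upper quartile, TMM without the Defa genes), the filter (none, or an average of 5 CPM), the tool (DESeq2 1.42.0), the libraries (the groups compared alone), added the replicate number as a block, and left out each library in turn, and DEX+TNF libraries 3 and 4 together.

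The members and lists were chosen with earlier results of these data known. Genes named were the 7 members, the 2 largest called increases and decreases of each list, the 3 genes most like each member (1 of them is not reported here), and Nfkbia, Cxcl10, Fkbp5 and Sgk1, with 7 more list genes named after their values were seen (Lgr5, Rnf43, Ryk, Rhbdf1, Egfr, Btc and Dll3). The stem cell marker genes Rgmb, Smoc2, Ascl2 and Olfm4 were also named after their values were seen, as were the endothelial marker genes. Fkbp5, induced by glucocorticoids, was at 43.2 to 135 CPM in the DEX groups and 6.51 to 31.0 CPM in the others. The p-values of the main fit weigh differences between groups against the spread between libraries said to be biological replicates, estimated over all 16 libraries. Protein sequences of the members were not analysed here.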

Additional observations from a re-analysis of the deposited data

Results flagged for a closer look

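In groups of 4 libraries, a library was picked out where its gap to the nearest other library took a larger part of the range of the group than Dixon's test allows at the 95% level. Chance alone picks about 1 in 20 groups, and 28 groups were tested, 4 groups for each of 7 genes. Dll1 was at 8.85 CPM in PBS+TNF library 1, below 13.1 to 13.4 CPM in the 3 other libraries of that group. That library had the lowest TMM factor of all, 0.418, and was also the lowest of its group for Wnt3, Tgfa, Dll4 and Jag1. The part of the scaling in these values was not tested.

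Bst1 was at 2.13 CPM in PBS+PBS library 4, at 0.281 CPM in PBS+TNF library 3 and at 1.89 CPM in DEX+TNF library 4, each against 0 in the 3 other libraries of the group. These are 17, 4 and 38 counts. With 0 in the 3 other libraries any count at all is picked out, so the chance rate above does not apply to Bst1. DEX+TNF library 4 was also the library with the highest sums of tuft, enterocyte and stem cell genes, and whether the Bst1 counts belong with them was not tested.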

How the results depend on the processing

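Of 739 recomputed values of the members, 687 kept their direction and their side of the threshold. The calls of Wnt3 and Dll4 after TNF were kept in all 25 alternatives and that of Egf in 18. Egf fell below the threshold in the fit to the 2 groups alone (-1.04) and without 6 single libraries, where all single-library fits gave -1.31 to -0.82 and called 2 or 3 members. Upper-quartile factors moved the median of all genes after TNF to -0.15, and Egf stood at -1.17.

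All genes called after TNF ran from 916 (without PBS+PBS library 1) to 1698 without single libraries. For DEX+PBS versus PBS+PBS they were 1, with 7 by DESeq2, 2 without DEX+TNF libraries 3 and 4, and 0 to 2 without single libraries. For DEX+TNF versus PBS+TNF they were 40, with 274 by DESeq2 (2 members, Wnt3 0.70 and Dll4 1.48), 0 in the 2 groups alone, 0 without libraries 3 and 4 and 0 to 102 without single libraries. For DEX+TNF versus DEX+PBS they were 40, with 6 without the filter, 259 by DESeq2, 0 in the 2 groups alone, 1286 without libraries 3 and 4 (2 members, Dll1 -1.38 and Dll4 -2.06) and 0 to 362 without single libraries. For the interaction they were 0, with 9 by DESeq2 and 0 to 1 without single libraries.

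Signs turned for values near 0. For DEX+PBS versus PBS+PBS, Wnt3 was -0.00725 with median-of-ratios and -0.00067 with upper-quartile factors, -0.021 at 5 CPM, -0.0079 by DESeq2 and -0.00444 in the 2 groups alone. Without single libraries Wnt3 ran from -0.13 to 0.087, Egf from -0.21 to 0.21, Tgfa from -0.047 to 0.28, Dll4 from -0.051 to 0.31 and Jag1 from -0.20 to 0.17. For DEX+TNF versus PBS+TNF, Tgfa was 0.012 with upper-quartile factors, and without libraries 3 and 4 Tgfa was 0.12, Dll1 -0.45 and Jag1 -0.54. Without single libraries these 3 ran from -0.15 to 0.15, -0.18 to 0.35 and -0.21 to 0.56. Egf in DEX+TNF versus DEX+PBS was 0.32 without libraries 3 and 4 and -0.23 to 0.11 without single libraries. The interaction of Jag1 was -0.59 without libraries 3 and 4, and without single libraries it ran from -0.25 to 0.52, that of Tgfa from -0.32 to 0.011 and that of Dll1 from -0.46 to 0.059. The cause was not tested for any of these.

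The replicate numbers were not taken to pair the libraries, since the labels give no shared source and not every same-numbered pair correlated over 0.1. Deviations of same-numbered libraries correlated at -0.37 to 0.50, with 12 of 24 pairs over 0.1, among them all 6 pairs of number 2 (0.15 to 0.41). In 12 of the 24 the library was closest to its own number, where 6 would be if the 4 numbers were equally likely. With the replicate block, 1482 genes were called after TNF (1344 shared with the fit without it), with 16 in DEX+TNF against PBS+TNF and 0 in DEX+TNF against DEX+PBS, with the same 3 members called after TNF and the call of Rhbdf1 lost. For DEX+PBS versus PBS+PBS, Wnt3 was -0.0062, Egf 0.026 and Jag1 -0.052 under the block. Jag1 gave no value at a mean of at least 5 CPM. Depth limits Bst1 and, with 800 counts in all, Jag1.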
